A study of Mus musculus with 12 samples.

Results

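The question addressed here was whether a hypoxia-inducible factor prolyl hydroxylase inhibitor, FG-4592 (Roxadustat), changed the same genes by the same amount in undifferentiated bone precursor cells and in osteocyte-like cells. For each gene the response was the log2 fold change of FG-4592 over vehicle within a cell state, and the quantity described is the response difference, the osteocyte response minus the response of the undifferentiated cells (MSCs). Of 56350 genes in the raw count table, 16484 were tested, those that passed 10 counts in 3 or more of the 12 libraries, and the response difference was called in 826 of them.

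The cells were MPC2, a conditionally immortalized mouse mesenchymal progenitor line that grows through a temperature-sensitive construct. MSCs were kept undifferentiated at 33 °C, and osteocytes had spent 3 weeks in osteogenic media at 37 °C. Each state received 50 µM FG-4592 or the vehicle DMSO for 48 hours, with 3 RNA-seq libraries in each of the 4 groups. All cells came from 1 clone, and cell state, temperature, media and time in culture changed together, so these cannot be told apart. The labels do not say that the libraries of a group came from separate cultures, so the p-values measure only the spread between these libraries, which may be technical.

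Libraries held 52829185 to 68108470 counts. Of 15 osteoblast and osteocyte markers, Sost was at 0 in every library and Mepe and Pdpn never passed 3 counts, and the summed level of the list was 3060 to 3440 counts per 1000000 (CPM) in vehicle-treated MSCs and 2980 to 3470 CPM in vehicle-treated osteocytes. Phex, a membrane peptidase of osteocytes, was higher in the osteocytes, at 63, 50.6 and 59.2 CPM with vehicle against 0.963, 0.868 and 1.1 CPM in MSCs. Dmp1, Bglap, Bglap2, Sp7 and Runx2 were also higher in vehicle-treated osteocytes, where Dmp1 read 13.7, 10.8 and 9.12 CPM against 0.89, 0.768 and 1.9 in MSCs. Most of the sum was Col1a1, which overlapped between the vehicle groups. Ibsp and Alpl went the other way. Ibsp read 64.2, 59.3 and 55.3 CPM in vehicle-treated MSCs against 37.2, 35.5 and 34 in vehicle-treated osteocytes. Markers of blood and marrow cells summed to 10.3 to 10.6 CPM in vehicle-treated MSCs, 3.65 to 5.4 with FG-4592, 17.8 to 20.4 in vehicle-treated osteocytes and 9.62 to 12.1 with FG-4592, with Adgre1 and Hbb-bs at 0.

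Cells sense oxygen through prolyl hydroxylases that mark the alpha subunits of hypoxia-inducible factors (HIF) for degradation. When these enzymes are inhibited, HIF accumulates, pairs with its beta subunit and binds short ACGTG-containing hypoxia response elements near genes of glycolysis, angiogenesis and iron handling. In bone, osteoblasts and osteocytes use this pathway to couple oxygen supply to vessel growth, matrix deposition and the secretion of the phosphate hormone FGF23.

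The response difference was higher in osteocytes in 649 genes (3.94% of those tested) and lower in 177 (1.07%), 5.01% in all, by edgeR's quasi-likelihood test with an absolute log2 difference above 1 and a Benjamini-Hochberg adjusted p below 0.05. By the adjusted p alone, 2194 genes were higher (13.3%) and 1815 lower (11.0%). The genes called higher had a median log2 difference of 1.63, with 426 of them at no more than 2 and 119 above 3. Those called lower had a median of -1.5. Over all tested genes the median difference was 0.05. The formal test that the difference exceeded 1 on the log2 scale called 146 genes higher and 32 lower.

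**Figure D1:**
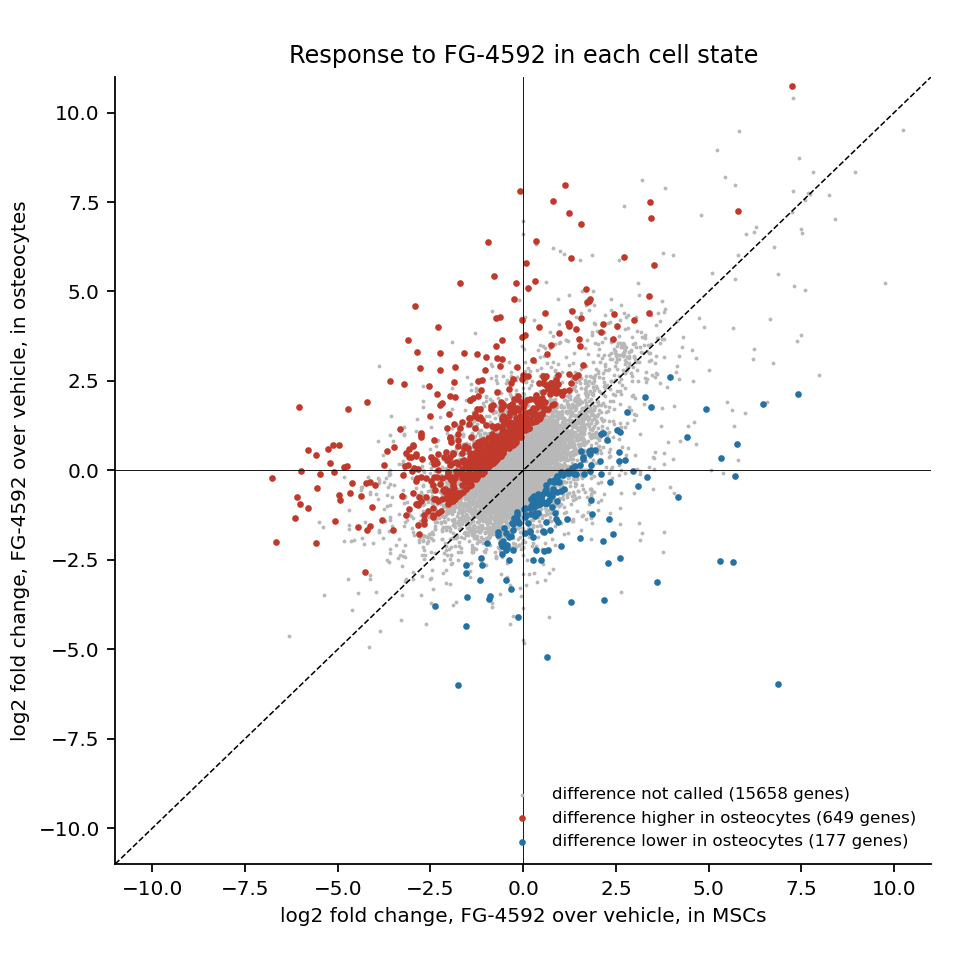
Each point is 1 tested gene, placed by its log2 fold change of FG-4592 over vehicle in MSCs (horizontal axis) and in osteocytes (vertical axis), 3 libraries per group. The 649 genes with a higher difference lie above the dashed line of equal responses and the 177 with a lower difference lie below it.

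Counted as protein-coding were 542 of the genes called higher and 151 of those called lower. In 78 of the former at least 1 group had no more than 3 counts in any library, which was the FG-4592-treated MSC group for 57 of them, and the fitted folds of such genes depend on the prior count. On the linear CPM scale the difference had the same sign for 564 of the 649 and 165 of the 177, and the other genes started from unequal vehicle levels. Exonic bases were shared with another gene for 207 and 55 of the called genes. Reads there were counted for every overlapping gene without regard to strand, so the genes with shared bases, which include Itga1, Plod2, Txnip, Slc2a1, Tpi1, Gpi1, Rora, Hif1a, Selenop, Prelp, Fgfr2, Islr, Slc5a3, Pcsk6, Smurf2, Gclm, Hyal1, Mgll, Col15a1, Cyp51, Idi1, Fdps, Hmgcs1, Thbs1, Eln, Slc20a2, Ankrd37, Egln2, Ednra, Acvrl1, Chrd, Fst, Cxcl16, Prg4 and Top2a, carry that uncertainty.

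Within MSCs, FG-4592 raised 679 genes (4.12%) and lowered 853 (5.17%), and within osteocytes it raised 1030 (6.25%) and lowered 702 (4.26%). In these counts a gene rose or fell in 1 state alone when only that response passed both cutoffs, so a smaller change in the other state is possible. Being called in 1 state alone did not mean that the responses differed. Of 579 genes that fell in MSCs and were not called in osteocytes, the difference itself was called in 248 (42.8%), and of 543 that rose in osteocytes alone it was called in 200 (36.8%). The share was lower for the 207 genes that rose in MSCs alone, of which 41 were called in the difference (19.8%), and for the 443 that fell in osteocytes alone, of which 71 were called (16%). Where responses were called in opposite directions, the difference was called in all 21 genes. That was nearly fixed in advance, since responses past the cutoff in opposite directions differ by more than the cutoff.

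The largest class, the 248 genes that fell in MSCs alone, had a median response of -1.86 in MSCs and 0.05 in osteocytes. The median level of its genes went from 2.01 to 0.615 CPM in MSCs and from 4.45 to 3.79 CPM in osteocytes. The 200 genes that rose in osteocytes alone had a median response of 1.84 there and -0.03 in MSCs, with median levels of 1.24 and 4.79 CPM before and after treatment of the osteocytes. A further 126 genes were called higher in the difference while neither response was called, and 35 rose in both states but more in osteocytes, with median responses of 1.69 and 4.11.

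**Figure D2:**
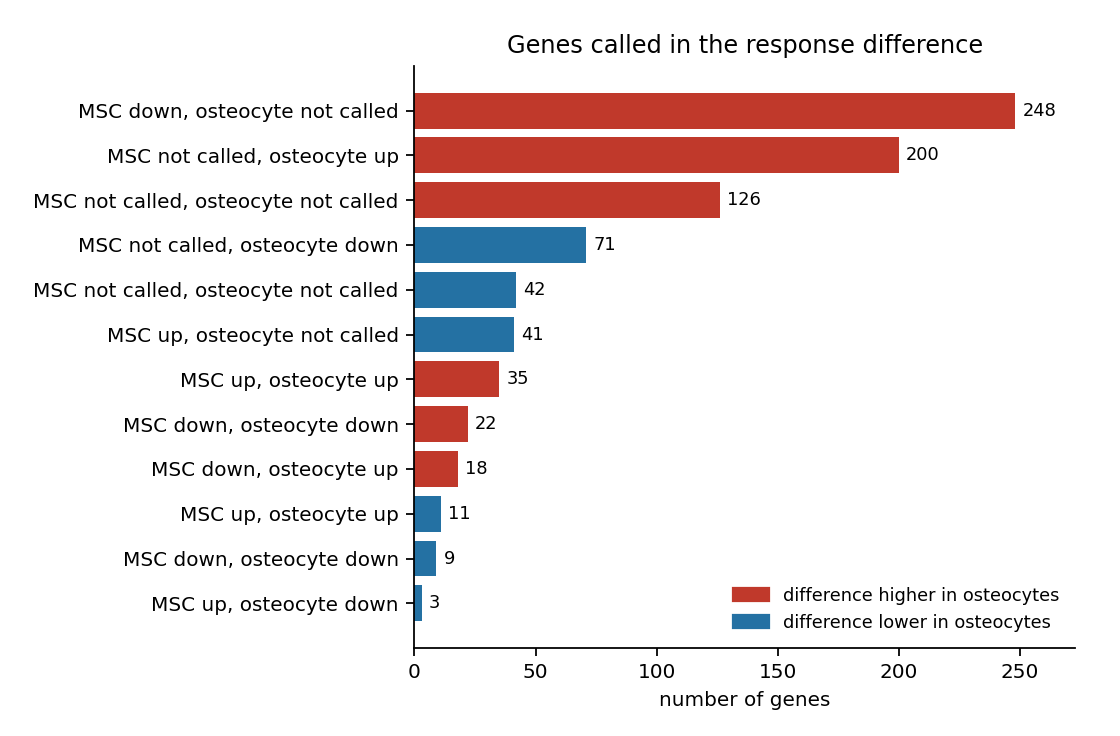
Bars count the genes called in the response difference by how each cell state responded on its own (red: difference higher in osteocytes, blue: lower). The 248 genes that fell in MSCs only and the 200 that rose in osteocytes only are the longest bars.

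Some genes rose by similar amounts in both states. Of 469 genes that rose in both, 171 (36.5%) had a 95% interval of the difference lying within 1 log2 unit of 0, a smaller share than the 59.3% over all tested genes, and 69 (14.7%) within 0.5. The next 6 genes are those of the HIF and glycolysis lists with the narrowest interval close to 0, so their likeness is how they were chosen. Egln1 (PHD2), the main oxygen sensor and itself a HIF target (chr8:124908587-124949324, mm10), read 56.7, 57.3 and 57.5 CPM in vehicle-treated MSCs and 488, 494 and 510.2 with FG-4592. In osteocytes it read 78.7, 75.8 and 72.5 CPM with vehicle and 591, 626 and 645 with FG-4592. The response was 3.12 ± 0.05 (SE) in MSCs and 3.04 ± 0.05 in osteocytes, and the difference of -0.08 had an interval of -0.23 to 0.06. Pgk1, a glycolytic kinase, rose by 3.62 ± 0.04 in MSCs and 3.70 ± 0.04 in osteocytes, with an interval of the difference from -0.04 to 0.20. The others were the glycolytic enzymes Tpi1 (-0.02 to 0.24), Gpi1 (0.01 to 0.25) and Pfkl (-0.26 to 0.11), and Rora (-0.24 to 0.10), a nuclear receptor.

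Short stretches around the first ACGTG match are shown for 5 HIF-responsive genes, to show that the letters occur where responses differed little (Egln1, Pgk1), were larger in osteocytes (Cited2) or were larger in MSCs or fell in osteocytes (Hk2, Pfkfb3). Capitals mark the match with any overlapping match on the other strand. The sequences are RefSeq, GRCm38.p6 (the same sequence as mm10), 5′ to 3′ on the strand of the gene. Positions are Egln1 chr8:124949306-124949334 (minus), Pgk1 chrX:106186938-106186966 (plus), Cited2 chr10:17723063-17723091 (plus), Hk2 chr6:82774664-82774692 (minus) and Pfkfb3 chr2:11553973-11554001 (minus).
Egln1: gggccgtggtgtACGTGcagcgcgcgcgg
Pgk1: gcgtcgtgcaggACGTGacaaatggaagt
Cited2: gcagccgctgcgCACGTGcagcgcggact
Hk2: agccacggaacaCACGTcccaactctggc
Pfkfb3: ctccgcgccgtgACGTGccaagctgtgac
ACGTG on either strand was found in the promoter window of 28.6% of the 10922 tested genes with one in the table (250 bases before to 50 after the start of a transcript). Among the HIF targets outside glycolysis it was 24 of 36 (66.7%), and among the glycolysis genes 11 of 19 (57.9%). Genes called higher in the difference held it in 99 of 448 (22.1%) and genes called lower in 26 of 105 (24.8%). For the class that fell in MSCs alone it was 31 of 175 (17.7%), for the class that rose in osteocytes alone 29 of 137 (21.2%), and for genes that rose in both but more in osteocytes 9 of 21 (42.9%). These shares describe letters in a window, and Pgf, Vldlr, Tpi1, Gpi1, Pfkl and Eno2 had no match there.

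Most HIF targets outside glycolysis rose in each state, some by unequal amounts. Of 47 tested members, 30 rose in MSCs and 37 in osteocytes, where 4.12% and 6.25% of all tested genes rose, with median responses of 1.83 and 2.38. The response difference was called higher in 8 and lower in 3, 23.4% of the list against 5.01% of all tested genes, and the list's median difference was 0.41.

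Vegfa, the vascular endothelial growth factor that draws vessels into bone (chr17:46016993-46032369), read 78.4, 86 and 97.3 CPM in vehicle-treated MSCs and 208, 204 and 207 with FG-4592. In osteocytes it started at 92.4, 93.7 and 89.6 CPM and reached 607, 584 and 608. Starting levels were close, so the higher level in treated osteocytes came with a larger fold, 2.71 ± 0.06 against 1.24 ± 0.06, a difference of 1.47 ± 0.09 (edgeR, Benjamini-Hochberg adjusted p = 1.05e-08). Pgf, the placental growth factor of the same family, read 19.2, 19.7 and 17.9 CPM in vehicle-treated MSCs and 12.9, 12.5 and 13.1 with FG-4592, against 14.7, 13.6 and 17.1 and then 43.8, 60.6 and 54 CPM in osteocytes. Treated and vehicle libraries did not overlap in either state, and the difference was 2.36 ± 0.15 (edgeR, adjusted p = 2.64e-08).

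Cited2, a competitor of HIF for its coactivator, reached 359, 398 and 389 CPM in treated osteocytes from 75.1, 82.9 and 76.6, and 168, 178 and 169.9 CPM in treated MSCs from 109, 105 and 112. Its response was 2.29 ± 0.05 in osteocytes and 0.66 ± 0.05 in MSCs, a difference of 1.63 ± 0.07 (edgeR, adjusted p = 4.67e-10). Hilpda, which blocks lipolysis on lipid droplets, rose by 4.21 in osteocytes and 2.98 in MSCs. Ankrd37, a known HIF target, rose by 7.26 and 5.79. Vldlr, a lipoprotein receptor, had a difference of 1.48 ± 0.13 in folds, but its vehicle level was 16.7, 16.1 and 19.6 CPM in MSCs and only 1.84, 1.65 and 2.11 CPM in osteocytes, so on the CPM scale the rise was larger in MSCs.

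Of the HIF targets with a lower difference, Tfrc and Plod2 rose past the fold cutoff in MSCs and not in osteocytes, and Pfkfb3 fell past it in osteocytes and not in MSCs. Tfrc, the transferrin receptor that takes up iron (chr16:32608920-32632794), read 20.6, 20.4 and 18 CPM in vehicle-treated MSCs and 120.4, 112 and 120.3 with FG-4592. In osteocytes the vehicle level was already 39.6, 50.3 and 50.0 CPM and FG-4592 took it to 71.9, 62.2 and 66.6. The response was 2.58 ± 0.09 in MSCs and 0.52 ± 0.08 in osteocytes, a difference of -2.06 ± 0.12 (edgeR, adjusted p = 9.65e-09). Plod2, the collagen lysyl hydroxylase, went from 101, 99.2 and 108 to 369, 357 and 367 CPM in MSCs and from 862, 834 and 855 to 931, 977 and 909 CPM in osteocytes, a difference of -1.68 ± 0.06 (adjusted p = 8.9e-11). The vehicle-treated osteocytes were thus above the treated MSCs for Plod2. Pfkfb3, the kinase that makes the activator of phosphofructokinase, fell in osteocytes, from 104, 111 and 114 to 31, 27.6 and 31.9 CPM, while in MSCs it read 12.7, 12.3 and 11.4 and then 8.63, 8.77 and 10.4 CPM, a difference of -1.47 ± 0.11 (adjusted p = 1.46e-07).

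**Figure D3:**
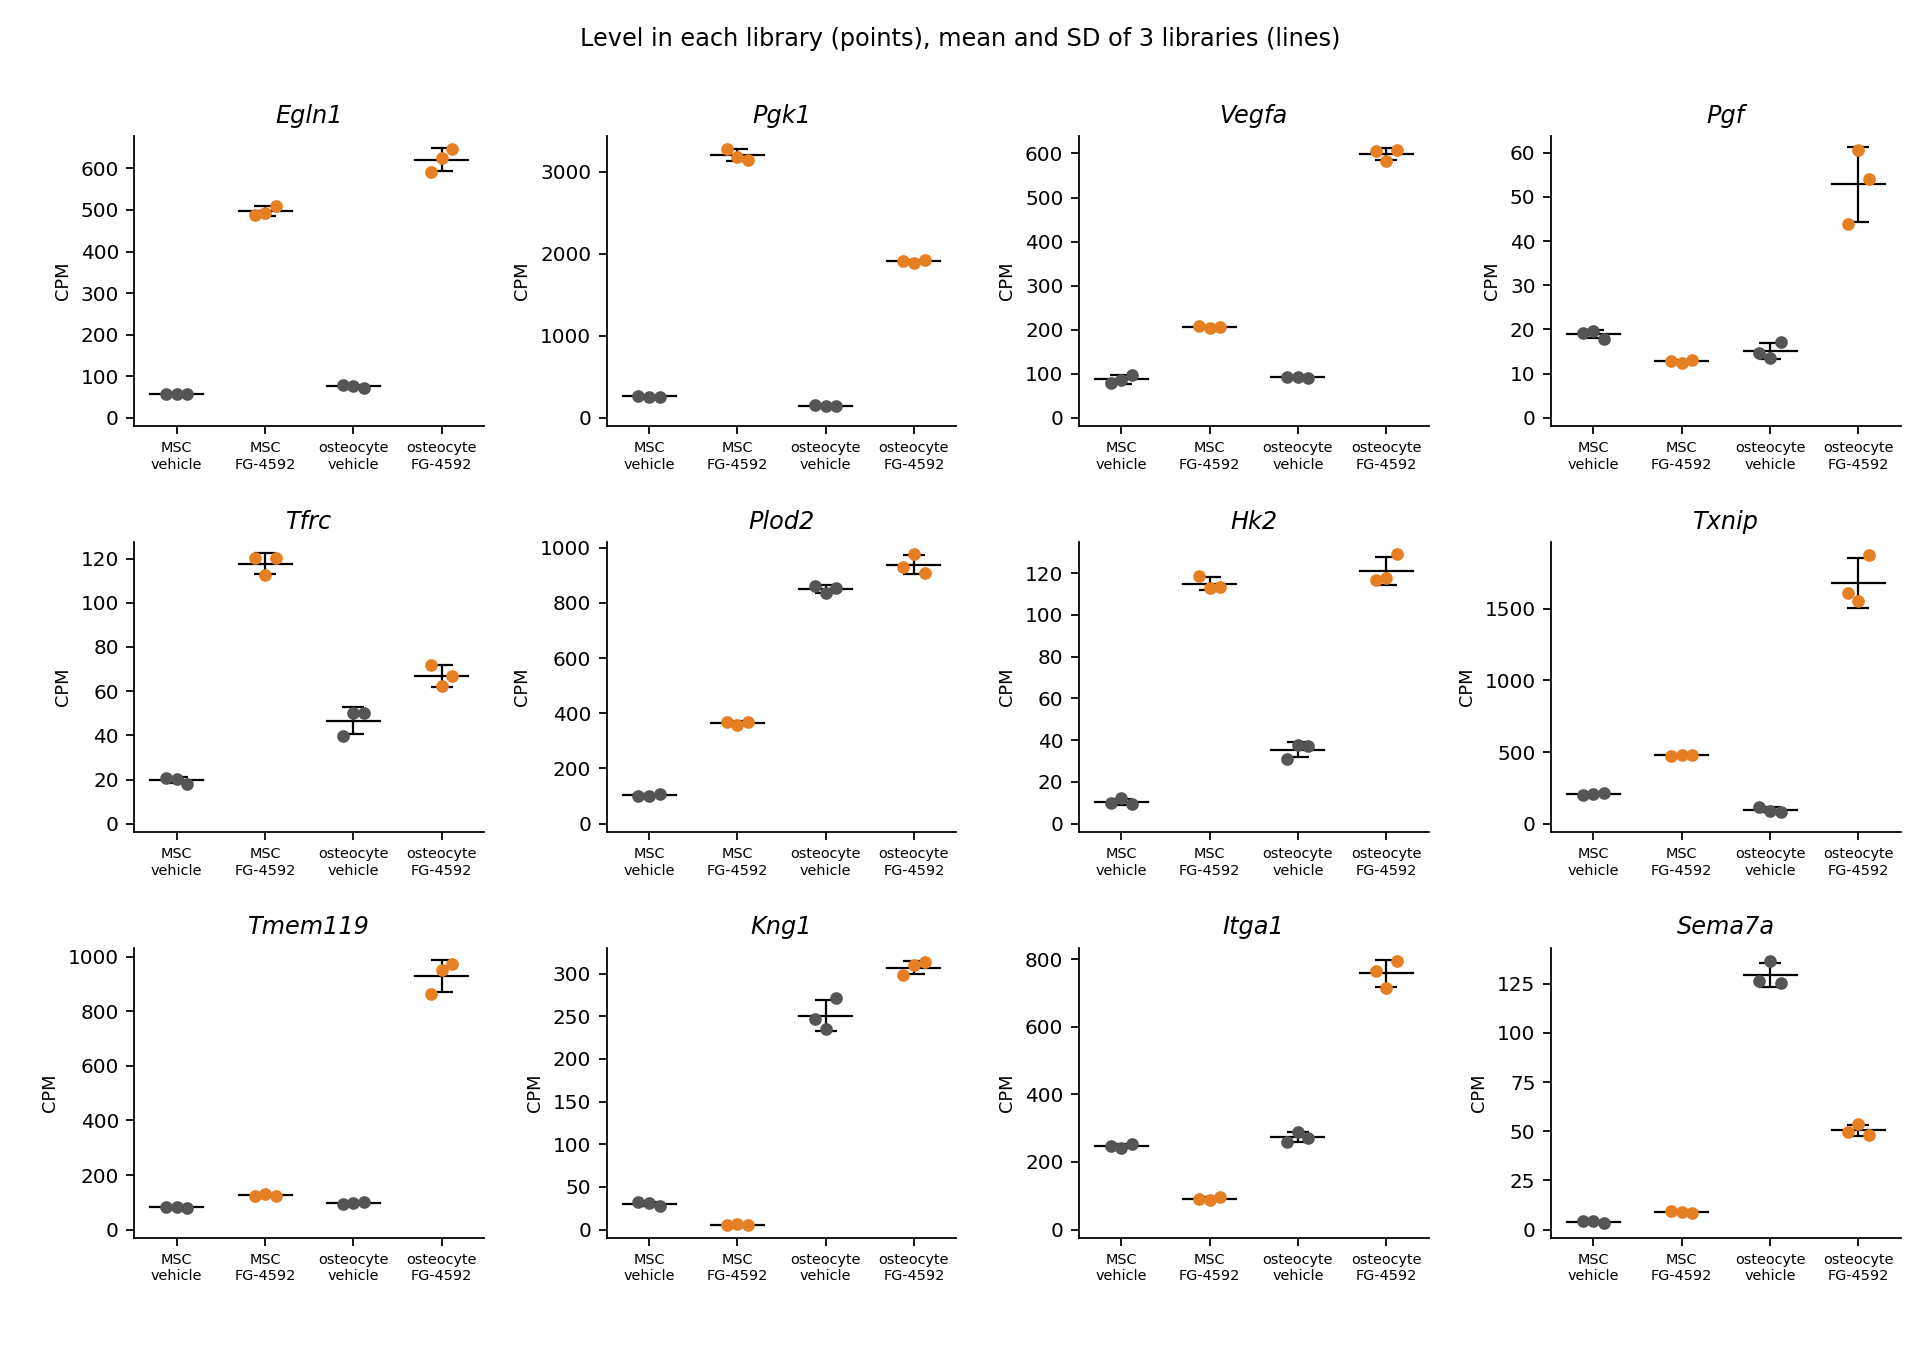
Each panel shows CPM of 1 gene in the 12 libraries (points), with mean and SD of the 3 libraries of each group (lines); vertical scales are linear, include 0 and differ between panels. Egln1 and Pgk1 rose by similar folds, Vegfa, Txnip and Tmem119 rose more in osteocytes, Pgf rose in osteocytes and was lower with FG-4592 in MSCs, Tfrc, Plod2 and Hk2 rose more in MSCs, Kng1 fell in MSCs, and Itga1 and Sema7a moved in opposite directions.

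Glycolysis genes rose by similar medians. Of 19 tested enzymes and lactate carriers, 14 rose in each state (4.12% of all genes in MSCs and 6.25% in osteocytes). Median responses were 2.36 in MSCs and 2.51 in osteocytes, with a median difference of 0.11. In the difference 2 were called (10.5%, against 5.01% of all genes). Hk2, the hexokinase isoform that traps glucose (chr6:82725025-82774454), read 10.1, 12.2 and 9.37 CPM in vehicle-treated MSCs and 119, 113 and 113 with FG-4592, and in osteocytes 31.1, 37.8 and 37.4 and then 117, 118 and 129 CPM. Both states reached a similar level from unequal starts, a difference of -1.67 ± 0.12 (edgeR, adjusted p = 1.02e-07). Eno2, the neuronal enolase, was low in every group and had a difference of -1.16 ± 0.24. Ldha, which makes lactate, rose by 3.31 in MSCs and 2.75 in osteocytes, a difference of -0.56 below the fold cutoff. Slc2a1, the glucose transporter GLUT1, rose by 3.36 and 3.50, with an interval of the difference from -0.05 to 0.31.

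None of the other oxygen-sensing genes described here was called in the difference. Egln2 (PHD1) had responses of 0.10 and 0.15, past neither cutoff, and Hif1a responses were -0.24 in MSCs and -0.49 in osteocytes. Epas1 (HIF-2 alpha) read 75.5, 73.4 and 73.4 CPM in vehicle-treated MSCs and 737, 710.5 and 656 in vehicle-treated osteocytes, and its responses were 0.09 and 0.21. Its response differed little between states although its level did not. Egln3 (PHD3) had 0 counts in the 3 vehicle-treated MSC libraries and 0, 0 and 1 in the treated ones, against 0.497, 0 and 0.179 CPM in vehicle-treated osteocytes and 14.9, 17.2 and 14.5 with FG-4592. It rose in osteocytes, but with both MSC groups at the floor the difference was not called (edgeR, adjusted p = 0.965). Gpr35, a G protein-coupled receptor, rose from below 0.07 to 9.63, 9.31 and 9.07 CPM in MSCs and from 0.542, 0.126 and 0.13 to 91.6, 89.4 and 87.2 CPM in osteocytes, and the difference of 0.50 had an interval of -1.25 to 2.25. Ero1l, the oxidase that drives disulfide formation, rose by 3.80 and 3.68 (interval of the difference -0.35 to 0.12).

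Angiogenic and vasoactive genes mostly had higher response differences where they were called, as did 649 of all 826 called genes. Among 37 tested members, 8 were called higher in the difference and 1 lower, 24.3% of the list against 5.01% of all tested genes. The median difference was 0.33. Besides Vegfa and Pgf, the lymphatic factor Vegfd went from 6.13, 6.11 and 7.69 to 24.9, 19.3 and 21.5 CPM in osteocytes while it read 30.0, 29.9 and 32.8 and then 27, 27 and 26.8 CPM in MSCs, a difference of 1.92 ± 0.14 (edgeR, adjusted p = 1.08e-07). Apln, the apelin peptide of growing vessels, rose in both states, by 2.10 in MSCs and 3.87 in osteocytes. The antiangiogenic matrix protein Thbs1 was abundant, at 1691, 1564 and 1602 CPM in vehicle-treated osteocytes and 6439, 6999 and 6376 with FG-4592, and its response was 2.03 there against 0.50 in MSCs. Of the receptors, Ednra, which binds endothelin, fell in MSCs from 1.34, 0.585 and 0.471 to 0.151, 0.119 and 0.0468 CPM and had a response of 0.40 in osteocytes, and the BMP9 receptor Acvrl1 rose in osteocytes alone, by 1.36. Of 7 endothelial markers, 4 never passed 3 counts, and their sum was 1.5 to 1.98 CPM in vehicle-treated MSCs, 1.73 to 2.42 with FG-4592, 1.54 to 3.19 in vehicle-treated osteocytes and 2.73 to 3.8 with FG-4592, and their part in these results was not tested.

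Among genes whose fall passed both cutoffs in MSCs and not in osteocytes, Kng1, a precursor of bradykinin (chr16:23057865-23082078), went from 32.2, 31.4 and 27.7 to 5.79, 6 and 5.12 CPM in MSCs and from 247, 235 and 271 to 298, 309.6 and 313 CPM in osteocytes. The treated and vehicle libraries of MSCs were far apart, and the difference was 2.72 ± 0.10 (edgeR, adjusted p = 8.9e-11). The neighbouring Kng2 is a close paralog of Kng1, so the split of reads between them is uncertain. Fgfr2, a receptor for fibroblast growth factors, went from 18.8, 18.8 and 22.5 to 4.4, 3.93 and 3.87 CPM in MSCs and from 149, 150.2 and 156 to 150.0, 145 and 162 CPM in osteocytes, responses of -2.30 and 0.01. The selenium carrier Selenop, the leucine-rich matrix proteins Prelp and Ogn, the stromal protein Islr and the inositol transporter Slc5a3 fell in MSCs by between 1.02 (Selenop and Slc5a3) and 2.80 (Islr) on the log2 scale. Their osteocyte responses ran from -0.74 for Islr to 0.80 for Prelp, none past the fold cutoff. Selenop and Slc5a3 were at -0.99 and -0.98 in MSCs without vehicle-treated MSC library 1 and 3, and 5 libraries ended each call.

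Itga1, the alpha subunit of a collagen-binding integrin (chr13:114953096-115101964), moved in opposite directions. It read 246, 243 and 253 CPM in vehicle-treated MSCs and 89.9, 86.2 and 95.5 with FG-4592, and 259, 289 and 272 CPM in vehicle-treated osteocytes and 764, 715 and 795 with FG-4592. The states started close and ended far apart, with a difference of 2.92 ± 0.08 (edgeR, adjusted p = 2.48e-12). Opposite responses of the same direction were seen in 18 genes, among them Kng2 (-1.71 in MSCs and 1.19 in osteocytes), the complement protein C4b (-1.22 and 2.07), the acid phosphatase Acpp (-1.12 and 1.40) and Esm1, an endothelial proteoglycan that was below 1 CPM in MSCs. The MSC response of Acpp was -0.91 without vehicle-treated MSC library 1. Only 3 genes rose in MSCs and fell in osteocytes. Sema7a, a membrane-anchored semaphorin (chr9:57940112-57962865), went from 4.29, 4.33 and 3.22 to 9.4, 9.03 and 8.42 CPM in MSCs and from 126, 137 and 125 to 49.7, 53.6 and 48.1 CPM in osteocytes. For the others, Ngfr and Cbfa2t3, the vehicle-treated MSC libraries were at 0 counts. The treated MSC libraries held only 2, 4 and 9 counts for Ngfr and 12, 7 and 0 for Cbfa2t3, whose MSC groups thus overlapped.

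Among genes whose rise passed both cutoffs in osteocytes and not in MSCs, Tmem119, a membrane protein of the osteoblast lineage (chr5:113793729-113800516), read 93.7, 96.4 and 100.5 CPM with vehicle and 862, 950.0 and 973 with FG-4592, against 81.6, 83.3 and 80.7 and then 125, 132 and 124 CPM in MSCs. Its responses were 3.26 and 0.63, a difference of 2.63 ± 0.07 (edgeR, adjusted p = 2.48e-12). Pcsk6, a proprotein convertase that activates TGF-beta family ligands, went from 31, 44.8 and 42 to 326, 329 and 369.8 CPM in osteocytes and from 72.6, 70.2 and 74.6 to 46.6, 48.2 and 50.6 CPM in MSCs. Smurf2, a ubiquitin ligase for SMADs and their receptors, rose by 1.97 in osteocytes with a response of 0.40 in MSCs, and the AP-1 factor Fosl2 by 1.59 with 0.27 in MSCs. Ppp1r3c, which directs phosphatase to glycogen, rose by 1.45 with -0.57 in MSCs. It was the only call among 15 glycogen genes (6.67%, against 5.01% of all genes). The class also held Kctd11, Jcad and Wbp1l, with differences of 1.56, 1.55 and 1.71.

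Of the genes that rose in both states but more in osteocytes, Txnip, the thioredoxin inhibitor that also limits glucose uptake (chr3:96557957-96561883), reached 1609, 1554 and 1878 CPM in osteocytes from 115, 91.8 and 84.8, and 469.8, 476 and 482 CPM in MSCs from 202, 206 and 211. Its responses were 4.11 ± 0.09 and 1.21 ± 0.09. Bsg (basigin), the chaperone of lactate carriers, rose to 4285, 4557 and 5047 CPM in treated osteocytes and 1876, 1971 and 1892 in treated MSCs, from similar vehicle levels, with a difference of 1.24 ± 0.09. Lama5, a laminin chain, rose by 4.08 in osteocytes and 1.23 in MSCs, but from 6.34, 4.58 and 2.91 against 118, 119 and 130.4 CPM, so its rise in CPM was larger in MSCs. Fewer genes rose more in MSCs. Gclm, a subunit of the enzyme that starts glutathione synthesis, rose by 2.15 in MSCs and 1.04 in osteocytes (0.98 without vehicle-treated osteocyte library 2), and Ciart, a clock repressor, by 3.95 and 2.61. Ndrg2, a stress-response gene, had fitted responses of 4.94 and 1.73 but its rise in CPM was larger in osteocytes.

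Rising past the fold cutoff in MSCs and not in osteocytes, besides Tfrc and Plod2, were Hyal1, a hyaluronidase (4.94, 4.41 and 4.13 to 17.8, 19.1 and 20.2 CPM), the lipase Mgll, the aldehyde dehydrogenase Aldh3a1 and the basement-membrane collagen Col15a1. The rise of Aldh3a1, 1.02, was 0.99 without treated MSC library 1. Responses of these 4 genes in osteocytes lay between -0.57 (Aldh3a1) and 0.47 (Mgll). Vehicle-treated osteocytes were already at 213, 204 and 207 CPM for Col15a1, against 50.2, 44.7 and 53.9 CPM in treated MSCs.

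Cholesterol synthesis had the lowest median difference of the lists, -0.86. Of 24 tested genes, 10 were called lower in the difference and none higher (41.7% of the list against 5.01% of all genes), and 20 were lower by the adjusted p alone, as were 11.0% of all genes. The median response was 0.06 in MSCs and -0.79 in osteocytes, 6 members fell in osteocytes past both cutoffs and none did in MSCs. Cyp51, the lanosterol demethylase (chr5:4081145-4104746), read 174, 157 and 156 CPM in vehicle-treated MSCs and 167, 164 and 174 with FG-4592, and 113, 105 and 112 CPM in vehicle-treated osteocytes and 33.1, 35 and 30.2 with FG-4592. Only the osteocyte groups were separate, and the difference was -1.80 ± 0.08 (edgeR, adjusted p = 6.68e-10). The early enzymes Hmgcs1 (-1.32 ± 0.09), Idi1 (-1.88 ± 0.16) and Fdps (-1.88 ± 0.30) and the late enzymes Msmo1 (-1.42 ± 0.11) and Sc5d (-1.22 ± 0.08) were called in the difference. So were Insig1 (-1.5 ± 0.06), a sterol-sensing brake on the pathway, and the sterol carrier Stard4 (-1.13 ± 0.09). Srebf2, the transcription factor of the pathway, had a smaller difference of -0.48. Leaving out any 1 library gave 10 to 12 members called lower.

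**Figure D4:**
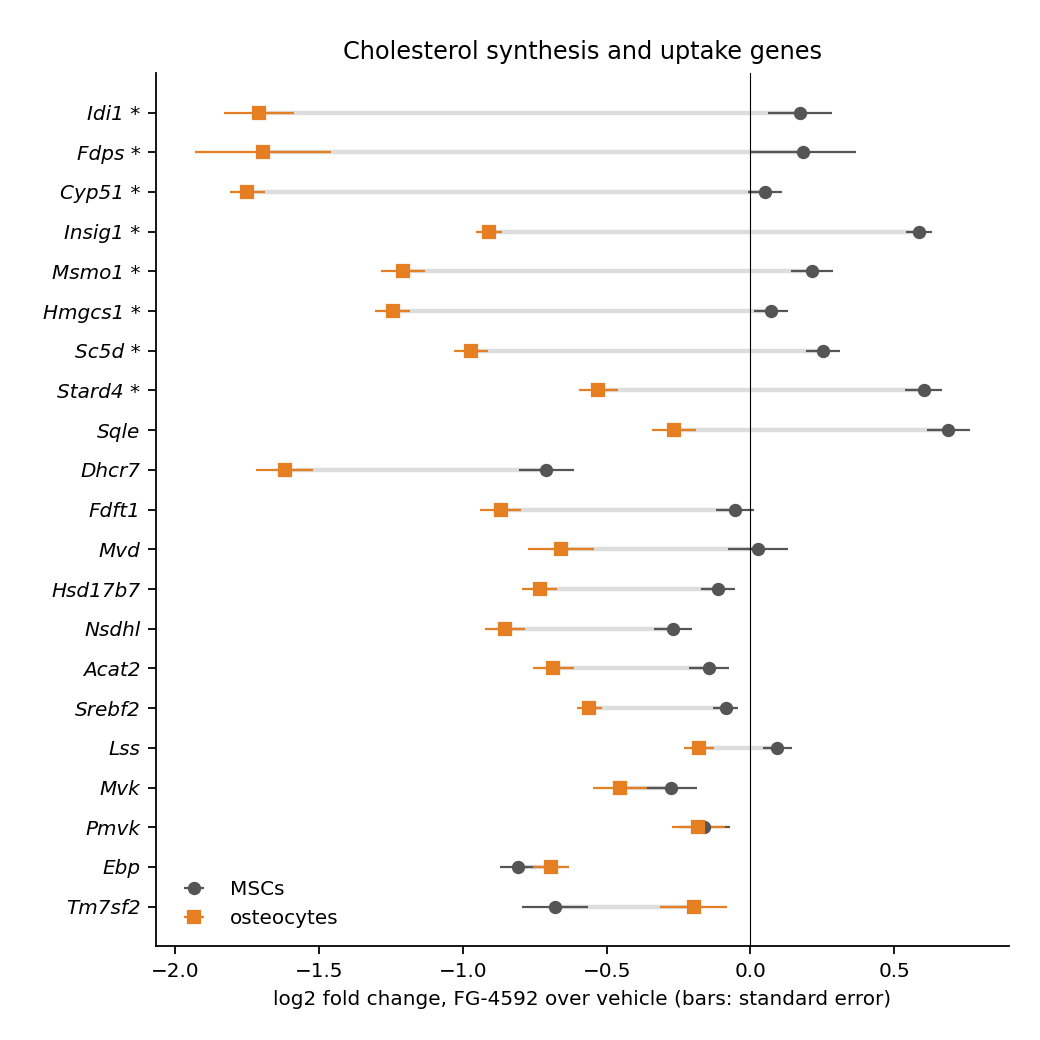
Log2 fold change of FG-4592 over vehicle in MSCs (circles) and osteocytes (squares), with standard errors, for 21 of the tested genes of cholesterol synthesis and uptake, where an asterisk marks the 8 of them called in the response difference. In 19 of 21 genes the osteocyte value lies to the left of the MSC value.

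Genes of cell division had lower response differences, by less than the fold cutoff for each gene. Of 52 mitosis and kinetochore genes, 37 fell in osteocytes and none in MSCs past both cutoffs, where 4.26% and 5.17% of all tested genes fell, and the median responses were -1.06 and -0.55. The count of 37 was 11 without treated osteocyte library 3, and 29 to 42 without any other library. None passed both cutoffs in the difference, while 22 were lower by the adjusted p alone (11.0% of all genes were) and 51 of 52 had a negative difference. Top2a, the mitotic topoisomerase, read 262, 253 and 251 CPM in vehicle-treated MSCs and 178, 147 and 150.1 with FG-4592, and in osteocytes 177, 154 and 193 and then 75.6, 73.2 and 46.1 CPM. The treated osteocyte libraries differed among themselves, and Mki67, a proliferation marker, read 65, 63.1 and 36.8 CPM in them. The osteocyte response of Mki67 was -0.99 without treated osteocyte library 3, the lowest of them. Leaving out 1 library gave 11 to 35 members lower by the adjusted p. Of 49 DNA replication genes 14 were lower by the adjusted p alone (9 to 18 without 1 library), led by the helicase subunit Mcm2 at -0.92 ± 0.15. In bulk RNA, fewer dividing cells and less RNA per dividing cell cannot be told apart. Cytosolic ribosomal protein genes leaned the other way, with 57 of 58 positive, a median difference of 0.40 (0.21 without vehicle-treated osteocyte library 1), and 15 higher by the adjusted p alone (6 to 30 without 1 library), as were 13.3% of all genes.

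Amino acid supply and ATF4 target genes leaned to lower response differences, through smaller rises or deeper falls in osteocytes. Of 38 tested, 5 were called lower (3 without treated MSC library 1) and 1 higher in the difference (15.8%, against 5.01% of all genes). By the adjusted p alone 20 were lower (11.0% of all genes), and the median difference was -0.48. Slc7a11, the cystine importer, went from 0.127, 0.117 and 0.189 to 3.46, 2.49 and 3.42 CPM in MSCs, and in osteocytes read 0.331, 0.0899 and 0.293 and then 0.816, 0.196 and 0.38 CPM. The treated and vehicle libraries overlapped in osteocytes only, and the difference was -3.46 ± 0.73 (edgeR, adjusted p = 0.00216). Phgdh, the first enzyme of serine synthesis, fell in osteocytes from 22.1, 25.2 and 27.4 to 6.67, 5.27 and 5.18 CPM, with responses of -2.12 and -0.58. The stress hormone Gdf15 fell in osteocytes, by 2.08 on the log2 scale. Nupr1, a stress-induced chromatin protein, was the member called higher, with responses of 1.39 and 2.62. The pseudokinase Trib3 (-1.24) kept its call in 5 of 12 leave-one-out fits, with -0.84 (adjusted p = 0.137) without vehicle-treated osteocyte library 3.

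Bone matrix and mineralization genes were split. Of 26 tested, 6 were called higher and 4 lower in the difference (38.5% of the list against 5.01% of all tested genes). In each state 10 fell, where 5.17% of all tested genes fell in MSCs and 4.26% in osteocytes. Alpl, the phosphatase that frees phosphate for mineral, went from 76.6, 69.4 and 83.7 to 17.9, 19.7 and 20.2 CPM in MSCs and from 57.3, 63.3 and 62.4 to 32.5, 41.5 and 29 CPM in osteocytes, responses of -1.99 and -0.83. Ibsp, bone sialoprotein, fell in both, from 64.2, 59.3 and 55.3 to 3.04, 3.26 and 3.98 CPM in MSCs and from 37.2, 35.5 and 34.1 to 7.44, 17.2 and 11.9 CPM in osteocytes. The fall was deeper in MSCs for both genes. Phex fell further in osteocytes, to 2.65, 3.78 and 2.06 CPM, and to 0.621, 0.209 and 0.203 CPM in MSCs, a difference of -2.81 ± 0.42 (edgeR, adjusted p = 0.000301). Postn, a matricellular protein, went the same way (-2.01 ± 0.36), and the phosphate transporter Slc20a2 (-1.34 ± 0.08) and the secretory kinase Fam20c (-1.20 ± 0.10) were also lower. Dmp1, an osteocyte matrix protein, fell by 2.44 on the log2 scale in each state, but the interval of its difference, -1.27 to 1.27, is wide.

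Fgf23, the phosphate-lowering hormone (chr6:127072902-127081408), read 0.0753, 0 and 0 CPM in vehicle-treated osteocytes and 1.92, 1.29 and 1.62 with FG-4592, and in MSCs 0, 0.0167 and 0.126 and then 0.0168, 0.0596 and 0.0781 CPM. All 3 treated osteocyte libraries were above the other 9, and the difference was 5.74 ± 1.52 (edgeR, adjusted p = 0.00888). The size rests on few counts: it was 3.43 (adjusted p = 0.401) without vehicle-treated MSC library 3 and 9.53 without vehicle-treated osteocyte library 1. The osteoclast decoy receptor Tnfrsf11b had a response of 0.91 in osteocytes and -0.21 in MSCs, and its difference of 1.12 came to 0.92 and 0.95 without vehicle-treated MSC library 1 or vehicle-treated osteocyte library 2. Tnfsf11 (RANKL) was at no more than 2 counts in the MSC libraries, and in osteocytes went from 1.45, 0.845 and 1.66 to 0.0924, 0 and 0.132 CPM; its difference was not called (edgeR, adjusted p = 0.144). Vdr, the vitamin D receptor, was called in the difference at 1.5 ± 0.09, with responses of -0.74 in MSCs and 0.76 in osteocytes.

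Of 20 tested cartilage genes, 6 were called higher in the difference and none lower (30% of the list against 5.01% of all genes), and 5 to 6 were called without any 1 library. In MSCs 3 members fell and none rose, and in osteocytes 5 rose and 3 fell. Of all tested genes, 5.17% fell and 4.12% rose in MSCs, and 6.25% rose and 4.26% fell in osteocytes. The median difference of 0.95 was 0.43 without treated osteocyte library 3, and none of the members passed the formal test that the difference exceeds 1. Col2a1, the main cartilage collagen, went from 52.6, 72 and 63.6 to 243, 306 and 333 CPM in osteocytes. In MSCs, vehicle-treated and treated together, it read between 0.563 and 1.41 CPM, a range that does not show whether it changed there. Prg4, lubricin of the joint surface, reached 79.2, 69.3 and 80.4 CPM from 18.9, 16.9 and 16.3 in osteocytes and had a response of 0.71 in MSCs. Comp, a cartilage matrix protein, fell in MSCs by 1.34 on the log2 scale with a response of 0.41 in osteocytes, and Col11a2 had responses of -0.75 and 0.97. Chrdl1, a BMP antagonist, lost its call in 9 of 12 leave-one-out fits, with 1.14 (adjusted p = 0.167) without vehicle-treated MSC library 1. Cytl1 fell in both states, to 0 counts in the 3 treated MSC libraries and by 2.00 on the log2 scale in osteocytes, so on the CPM scale its difference has the other sign. It lost its call (adjusted p = 0.0513) without treated MSC library 2.

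Other matrix lists were mixed. Among 28 collagens, 2 were called (7.14%, against 5.01% of all tested genes). Col27a1 fell in MSCs from 18.8, 18.4 and 19.4 to 3.69, 3.05 and 2.53 CPM with a response of -0.20 in osteocytes, and Col15a1 was the other call. Of 20 genes of elastic fibres and lysyl oxidases, 2 were called higher and 2 lower (20% of the list). The elastic-fibre proteins Fbln2 and Emilin1 were higher in the difference (1.19 and 1.29) and the TGF-beta binding protein Ltbp1 lower (-1.22). Eln, elastin, fell in osteocytes from 33.9, 27.7 and 23.5 to 2.99, 4.38 and 2.51 CPM, but its call in the difference rested on treated MSC library 2, at 1.24 CPM against 0.0168 and 0, and without it was -1.29 (adjusted p = 0.805). The collagenase Mmp13 rose in osteocytes, from 92.6, 68.1 and 79 to 286, 249 and 250.3 CPM, with a difference of 2.30 ± 0.20. Membrane-type Mmp17 lost its call in 10 of 12 leave-one-out fits, with 0.95 (adjusted p = 0.0939) without treated MSC library 1.

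In BMP and TGF-beta signalling, 6 of 44 tested genes were called higher and 1 lower (15.9%). Over all tested genes the share called was 5.01%, for comparison with each list in this paragraph. The antagonists differed in how they got there. Nog fell in MSCs from 1.07, 0.935 and 0.581 to 0.235, 0.283 and 0.172 CPM with a response of 0.45 in osteocytes, Fst fell in MSCs by 1.90 with -0.62 in osteocytes, and Chrd rose in osteocytes by 1.11 with -0.05 in MSCs. Of 40 WNT genes 3 were higher and 1 lower (10% of the list), with 2 to 5 higher when 1 library was left out and none by the formal test that the difference exceeds 1. The receptor Fzd4 was at 0.98 without treated MSC library 3 and the inhibitor Nkd1 at 0.89 without treated MSC library 1. The gene called lower was the antagonist Sfrp4, which fell in osteocytes from 78.5, 64.5 and 74.9 to 20, 17.3 and 10.8 CPM with a response of -0.45 in MSCs. Apcdd1, another WNT antagonist, had responses of -0.87 and 0.48. Of 54 axon guidance genes 6 were higher and 2 lower (14.8%), with 5 to 8 higher and 1 to 3 lower when 1 library was left out. Sema3g, a secreted semaphorin, rose in osteocytes from 0.316, 0.971 and 1.37 to 24.6, 20.3 and 28 CPM and stayed under 0.5 CPM in MSCs, and the ephrin Efnb1 fell in MSCs from 86.2, 88.5 and 86.7 to 40.5, 41.3 and 37.3 CPM with a response of 0.38 in osteocytes.

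The list of chemokines and cytokines was also split, with 4 of 23 tested higher and 3 lower (30.4%, against 5.01% of all tested genes). Tnfrsf11b, described above, was among those called higher. The monocyte attractants Ccl2 and Ccl7 fell in osteocytes, Ccl7 from 8.12, 10.3 and 14.5 to 1.65, 1.08 and 1.21 CPM, and had responses of -0.28 and -0.46 in MSCs. Cxcl16 fell in MSCs from 0.599, 0.868 and 0.99 to 0.134, 0.0894 and 0.0312 CPM with a response of -0.71 in osteocytes. There it went from 13.7, 12.6 and 12.1 to 8.02, 6.48 and 9.01 CPM, so on the CPM scale its difference has the other sign. The alarmin Il33 fell in osteocytes by 1.44 with a response of 0.94 in MSCs. The neutrophil attractant Cxcl1 fell in MSCs by 1.08, and its difference of 1.13 was 0.98 without vehicle-treated MSC library 2. The summed level of blood and marrow markers was lower with FG-4592 in both states, and most of the vehicle sums was Lyz2. Lyz2 went from 6.67, 7.48 and 7.15 to 2.37, 1.47 and 1.51 CPM in MSCs and from 17.1, 16.2 and 19.2 to 8.68, 10.3 and 9.99 in osteocytes. Treated and vehicle libraries overlapped for Cd68 in MSCs and for Csf1r and Ptprc in osteocytes. Of the 10 markers, 5 were at no more than 3 counts in any library, and the part of these cells in the results was not tested. Of 41 interferon-stimulated genes, 19 fell in MSCs and 17 in osteocytes, where 5.17% and 4.26% of all tested genes fell, and 1 was called in the difference (2.44%). That gene, the RNA sensor Ifih1, had a difference of 1.05 that was 0.91 without vehicle-treated MSC library 3 and was below the cutoff in 5 of 12 such fits. The class I molecule H2-Q6 fell in MSCs by 2.41 with a response of 0.18 in osteocytes, and H2-Q7 had 0 counts in the treated MSC libraries; they are near-identical paralogs, so their split is uncertain.

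The median difference of a list lay between -0.86 (cholesterol) and 0.95 (cartilage). No member was called in the difference among 24 TCA cycle genes, 36 complex I subunits, 24 fatty acid oxidation genes or 32 genes of ER folding. By the adjusted p alone, 8 TCA cycle genes were lower in osteocytes (6 to 11 without 1 library) and none higher, against 11.0% and 13.3% of all genes. Of all 826 called genes, 706 were in none of the 36 lists.

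**Figure D5:**
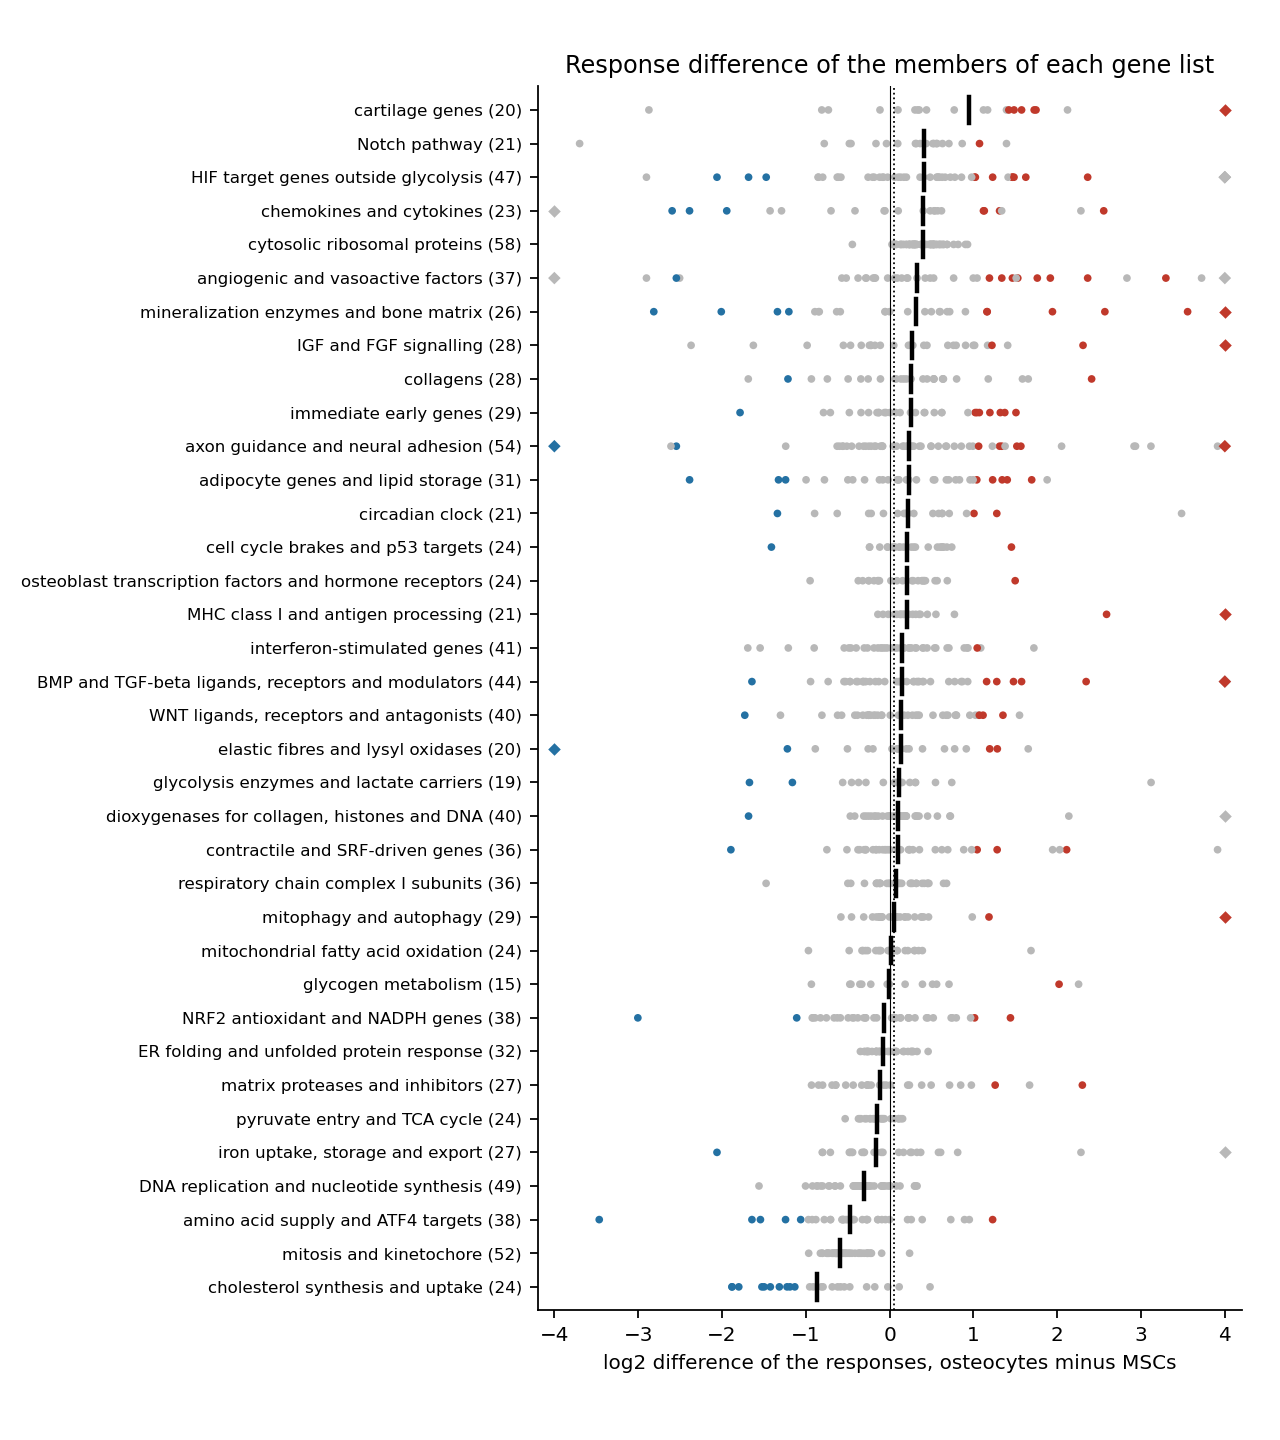
Each point is the log2 response difference of 1 tested member of a list (number tested in brackets), red where called higher in osteocytes, blue where called lower and grey where not called; black bars are list medians, the dotted line the median of all genes, and diamonds lie beyond the axis. Cholesterol synthesis has the lowest median, -0.86, and cartilage genes the highest, 0.95.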

How the data were processed

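Poly(A)-selected RNA of the 12 samples was sequenced as paired ends. Per the paper's methods and the submitters' processing notes, the authors aligned reads to mm10 with STAR 2.7.2a and counted uniquely mapped pairs per Gencode M22 gene with featureCounts (Subread 1.6.2), without strand and for every overlapping gene. The deposited values are raw counts, and all 12 columns were used, with 0 other sample columns. The authors also analysed them with edgeR, where the version in the processing notes (3.24.3) differs from the one in the paper's methods; those results were not used here. Here genes that passed 10 counts in 3 or more libraries were fitted with edgeR 4.0.16 (R 4.3.3), TMM scaling (factors 0.9474 to 1.057) and 1 quasi-likelihood model over the 4 groups, with contrasts for each response and their difference. Adjusted p-values are Benjamini-Hochberg over all 16484 genes; a call needs an absolute log2 value above 1 and an adjusted p below 0.05. CPM use TMM-scaled totals, where 3 counts are 0.0447 to 0.0545 CPM. Standard errors are Wald errors from the moderated dispersion. An exact permutation of 3 against 3 libraries cannot go below 0.1. Counting error alone limits low genes. The scripts were tested on simulated data. No 2 libraries of a group agreed within counting noise (chi-square per degree of freedom 9.186 to 35.35).

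Named genes were, for each list, up to 4 called members per direction with the largest difference and, in the highest group, 50 or more counts on average; for each response class of 5 or more genes, the 6 protein-coding genes with the smallest adjusted p and 100 or more counts; the genes the study names for its RNA-seq; and the 6 HIF and glycolysis genes with the narrowest interval around 0. A few genes that met these rules are not reported here. A few other list members were added after their values were seen. The gene lists and members were chosen with earlier results of these data known. Alternatives were other tests, scalings and filters, a replicate block, removal of genes that share exonic bases, and leaving out each library.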

Additional observations from a re-analysis of the deposited data

Results flagged for a closer look

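Results were picked out here because the response to FG-4592 differed between the cell states by a test of the difference itself (edgeR's quasi-likelihood interaction contrast). At the level of counts these were the 649 genes with a higher and the 177 with a lower response in osteocytes. In 21 genes the responses were called in opposite directions.

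Among those reported here, genes with at least 1000 counts on average in their highest group had log2 differences of 2.92 (Itga1), 2.90 (Kng2), -2.54 (Sema7a), 3.30 (C4b), 2.52 (Acpp), 4.47 (Esm1) and 2.69 (Pde3b). Pde3b encodes a cyclic nucleotide phosphodiesterase. The MSC side of Esm1 and Pde3b rests on few counts. Esm1 had 38, 36 and 17 with vehicle and 11, 7 and 1 with FG-4592, and Pde3b 45, 67 and 39 and then 20, 31 and 18. At lower counts, the differences were 4.06 for the proton pump subunit Atp6v0a4 and 2.88 for the cytokine Il16. Genes with fewer than 100 counts on average in every group were Id4 (5.64), an inhibitor of helix-loop-helix factors, the interferon-induced Ifitm1 (4.05), the glycosyltransferase Mgat4a (2.99), Gm12185 (4.89), Gm37800 (2.77) and Gm8013 (5.05). The fitted values of Ngfr (-7.84), Cbfa2t3 (-8.21), Dpep2 (7.82) and Gm6345 (7.52) depend on the prior count, because at least 1 group had no more than 3 counts in any library, and bound nothing. Itga1, Atp6v0a4, Gm12185, Il16, Id4, Dpep2 and Cbfa2t3 share exonic bases with another gene.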

How the results depend on the processing

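No called result changed direction under the alternatives run. Among values not called, the difference ran from -0.58 to 0.94 for Dmp1, -0.09 to 0.09 for Egln2 and -0.10 to 1.56 for Gpr35, and the glycolysis median was -0.13 without genes that share exonic bases. With limma voom, Egln3 was called in the difference (adjusted p = 0.0181), and Tnfsf11 was called lower by the likelihood ratio test (adjusted p = 0.0415) and DESeq2 (adjusted p = 0.03). The test that the difference exceeds 1 on the log2 scale left 146 genes higher and 32 lower, and by class 61 that rose in osteocytes only, 42 that fell in MSCs only, 7 that rose in both but more in osteocytes, 31 higher with neither response called, 18 that fell in osteocytes only, 4 that rose in MSCs only and 4 opposite. Without genes that share exonic bases 404 were higher, with 117 that rose in osteocytes only, 159 that fell in MSCs only and 76 with neither response called; fewer genes are tested there. The likelihood ratio test gave 40 opposite genes (1074 calls in all, 826 of them shared with the main 826). DESeq2 called 926 (804 shared) and limma voom 809 (728 shared). Leaving out 1 library gave 713 to 854 calls, of which 652 to 725 were shared. Replicate numbers did not pair the libraries (correlations of their deviations -0.135 to 0.0543), and a fit with the replicate block called 606 higher and 166 lower, 750 of the 772 shared. Of the 139 named genes called in the difference, 116 kept the call whichever library was left out. Genes under about 1 CPM rest on few counts and their folds are imprecise.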

Other observations

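Adipocyte genes, which mark an alternative fate of these progenitors, were split: of 31 tested, 5 were called higher and 3 lower in the difference (25.8% of the list against 5.01% of all tested genes). The early adipogenic factors Cebpb and Cebpd rose in osteocytes, Cebpb from 6.31, 8.27 and 7.25 to 28.9, 29.6 and 27.7 CPM and Cebpd from 8.83, 9.04 and 9.74 to 34.6, 35 and 30.4 CPM, with responses of 0.29 and 0.45 in MSCs. Fabp5, a fatty acid binding protein, fell in osteocytes from 44.3, 56.9 and 63.5 to 14.8, 17.7 and 19.3 CPM with a response of 0.72 in MSCs. Adipoq, the adipocyte hormone, was abundant in vehicle-treated osteocytes at 1193, 1487 and 1730.4 CPM, with a response of -0.10 there and a fall of 1.44 in MSCs from 7.45, 7.55 and 8.31 CPM, and on the CPM scale its difference has the other sign.

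Immediate early genes were called higher in 7 of 29 and lower in 1 (27.6% of the list against 5.01% of all genes). Leaving out 1 library gave 3 to 7 higher. Jun rose by 1.06 in MSCs and 2.10 in osteocytes, a difference of 1.04 that was 0.91 without vehicle-treated osteocyte library 1, and Ier3 by 2.52 and 4.03. Fosb lost its call in 8 of 12 leave-one-out fits. Among 38 NRF2 and NADPH genes the calls were Gclm, Gstt1 (1.44), Gpx1 (1.01, and 0.87 without vehicle-treated osteocyte library 1) and Gsta4 (-3). They were 10.5% of the list against 5.01% of all genes, with 1 to 3 higher and 2 to 4 lower when 1 library was left out. Among 36 contractile genes, 3 were called higher and 1 lower in the difference (11.1% of the list against 5.01% of all genes), and 12 fell in MSCs and 8 in osteocytes, where 5.17% and 4.26% of all genes fell. Of those called, Des, the intermediate filament of muscle, fell in MSCs by 1.5 with a response of 0.61 in osteocytes, and Tagln, an actin-binding protein, fell by 1.17 in MSCs and 3.06 in osteocytes. The other calls, Synpo2 (1.28) and Myh10 (1.04, with the other sign on the CPM scale), were each lost in 8 of 12 leave-one-out fits. The autophagy kinase Ulk1 rose in osteocytes from 41.5, 40.4 and 37.5 to 132, 133 and 132 CPM with a response of 0.55 in MSCs, and the clock repressor Nr1d1 had responses of -0.39 and 0.89. Cebpb, Cebpd, Des, Tagln, Nr1d1 and Jun share exonic bases with another gene.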
